A study of Mus with 4 samples.

Results

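Chemokines, interleukins and haematopoietic cytokines are the secreted proteins by which cells call in, keep alive and activate leukocytes. They were followed here in cultured podocytes as every probe whose gene symbol begins with Ccl or Cxcl and goes on with a number, or is Il with a number and at most 1 letter from a to f, or is Cx3cl1, Csf1, Csf2, Csf3, Lif or Tnf. These symbols gave 71 genes read by 107 probes, of 26893 genes and 56605 probes on the array. The rule itself reads symbols and no measured value.

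Chemokines bind G protein-coupled receptors and direct the migration of leukocytes, with CXC members that carry the ELR motif acting on neutrophils, interferon-inducible CXC members acting on activated T cells, and many CC members acting on monocytes and T cells. Interleukins and colony-stimulating factors bind receptors that mostly signal through JAK kinases and STAT factors, and their families share receptor chains, such as gp130 for the family of interleukin 6 and the common gamma chain for interleukins 7 and 15. Podocytes, the epithelial cells that wrap the capillaries of the glomerulus, are known to make chemokines and colony-stimulating factors when they are injured or meet bacterial products.

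The study asked which genes follow OASIS (Creb3l1), a membrane-bound transcription factor of the endoplasmic reticulum, when its active form is overexpressed in podocytes. An immortalized murine podocyte cell line was differentiated for 10 to 14 days at 37 °C without interferon-γ, which is left out so that the cells stop growing. For 24 h it then received lentivirus that carries either Venus, a fluorescent protein used as control, or OASIS in its active form, in both cases with 8 µg/mL polybrene and 10% FBS at a multiplicity of infection of 200 to 500. At 48 h from the start of infection RNA was taken from 2 samples of each group. In this way all 4 samples carry a lentiviral vector, no sample is an uninfected cell, and 1 cell line stands for podocytes. The labels do not say that the samples of a group were separate cultures, so that p-values measure the spread between these samples, which may be technical.

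Each sample had a 1-colour array to itself, and the 4 arrays shared 1 slide and 1 scan. Between 33938 and 34418 of 59305 spots were well above background on an array, and no spot was saturated. Values are normalized log2 intensities, that is, the log2 of the background-corrected intensity relative to the 75th percentile of the same array, and a log2 fold change is OASIS minus Venus. They are given in the order Venus replicate 1, Venus replicate 2, OASIS replicate 1, OASIS replicate 2. A level is never set against that of another probe, since probes differ in brightness for reasons of their sequence. The single probe for Creb3l1 itself read 0.71, 0.72, 0.61 and 0.49, with a log2 fold change of -0.17 (SE 0.10, adjusted p = 0.298 by limma), and since its place on the transcript was not analysed here it does not check the labels. Of 13 podocyte marker genes 8 were tested, among them Synpo and Podxl, 4 were above background on no array, and Nphs1 was so on a single array by 1 of its 2 probes. A pair of podocyte marker probes was higher with OASIS, for Wt1 (log2 fold change 4.62, with -0.16 by its other probe) and Cd2ap (1.09), and 1 was lower, for Kirrel (-1.11). Of 11 macrophage and dendritic cell marker genes 8 were tested, with Itgax higher and no other called, and 3 were above background on no array, Adgre1 among them. Of 10 lymphocyte marker genes 4 were tested and none was called, and 5 were above background on no array. The part of these marker changes in the cytokine values was not tested. RNA of the whole culture was measured, so that fewer cells making a transcript and less transcript per cell cannot be told apart.

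Only probes well above background on each array of a group, Venus or OASIS or both, entered the test, where the SE is the standard error that limma gives. This left 49 probes of 34 genes, and 44 of these probes were well above background on all 4 arrays. Of the other 37 genes, 33 had no probe above background on any array. They include the interleukin 1 cytokines Il1a and Il1b, Il12a, Il12b and Il23a of the interleukin 12 family, the type 2 cytokines Il4, Il5 and Il13, the anti-inflammatory Il10, the T cell cytokines Il17a and Il17f, the neutrophil attractants Cxcl2, Cxcl3, Cxcl5 and Cxcl15, the B cell attractant Cxcl13, the T cell attractant Cxcl9, and Ccl3, Ccl4, Ccl6, Ccl11, Ccl12, Ccl19, Ccl22, Ccl24 and Ccl26. Cxcl17, Il9, Il16, Il17b, Il20, Il25 and Il31 complete this group. The remaining 4, Ccl9, Il2, Il3 and Il24, were above background on some arrays but not on both of a group. Of the 58 untested probes, 11 came from genes that another probe tested. These genes were Ccl1, Ccl25, Csf1, Cx3cl1, Cxcl14, Il7, Il19, Il21, Il22, Il33 and Tnf, whose probes thus differ in detection. The 58 untested probes had array values between -8.48 and -5.76. When every probe was tested whatever its signal, 1 of them was called, for Ccl6, at -7.20, -7.32, -6.22 and -6.21 and above background on no array (log2 fold change 1.05, limma adjusted p = 0.0440), so that its size is not known.

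Past the threshold of the study, a fold over 2.0 or under 0.5 with an adjusted p under 0.1, were 10 probes of 7 genes on the lower side and 1 probe on the higher side. Lower with OASIS were the chemokines Ccl2, Ccl5 and Cxcl10, the cytokines Il7, Il15 and Il34, and 1 probe of Ccl28 whose other probe lay on the higher side, and the gene higher with OASIS was Cxcl12. Over all probes tested the same rule called 2.47% lower and 5.89% higher, 8.36% in either direction, so that the members were called lower in a larger share than the array as a whole and called higher in a smaller one. By the adjusted p alone, 17 of the 49 tested member probes were lower and 4 of the 49 higher, beside 19.7% lower and 17% higher over all probes. Both OASIS arrays lay below both Venus arrays for 25 of the 49 probes and above them for 7, beside 39.4% and 28.6% of all probes. The median log2 fold change of the tested members was -0.30, beside -0.069 for all probes. These are counts over probes that passed the filter and were not tested as a set. Of the 10 lower probes, Cxcl10 A_55_P2016459 and Ccl28 A_51_P276560 passed that filter only through the Venus arrays, where they read higher. Among probes above background on all 4 arrays, 8 of 44 member probes were lower and 1 higher. Over all probes kept by that filter, 2% were lower. By the t-test of the study's methods in place of limma, 1 member probe was lower (Il7) and 1 higher (Cxcl12). The study used its limits to pick genes whose proteins could be secreted, and its list was not compared here.

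**Figure D1:**
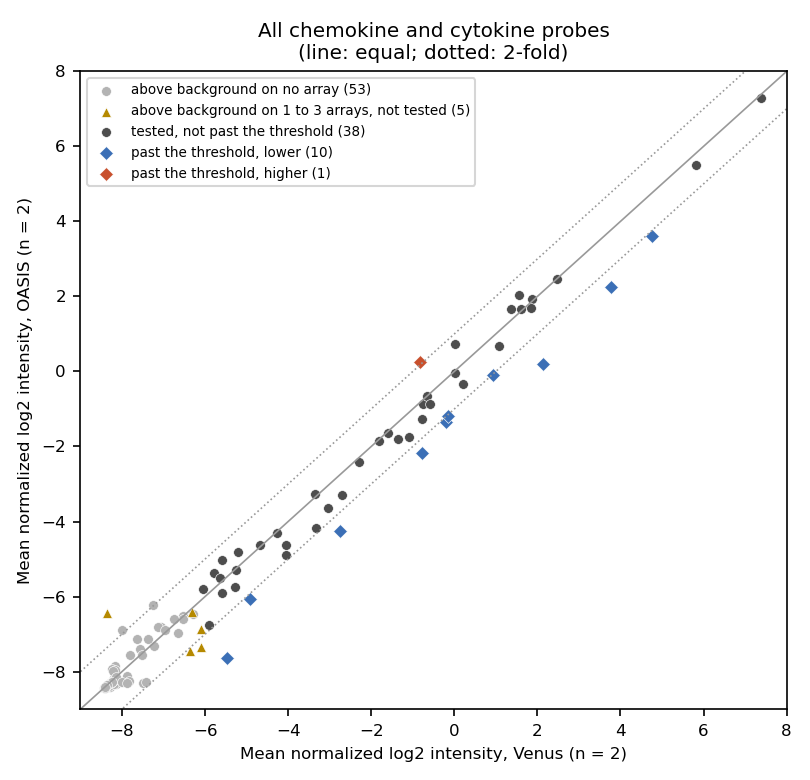
Each point is 1 of the 107 chemokine and cytokine probes, with its mean normalized log2 intensity over the 2 Venus arrays on the x axis and over the 2 OASIS arrays on the y axis. The solid line marks equal values and the dotted lines a 2-fold difference. The 53 probes above background on no array lie at the lower left, the 10 probes called lower (blue diamonds) lie below the line and the 1 called higher (red diamond) lies above it.

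**Figure D2:**
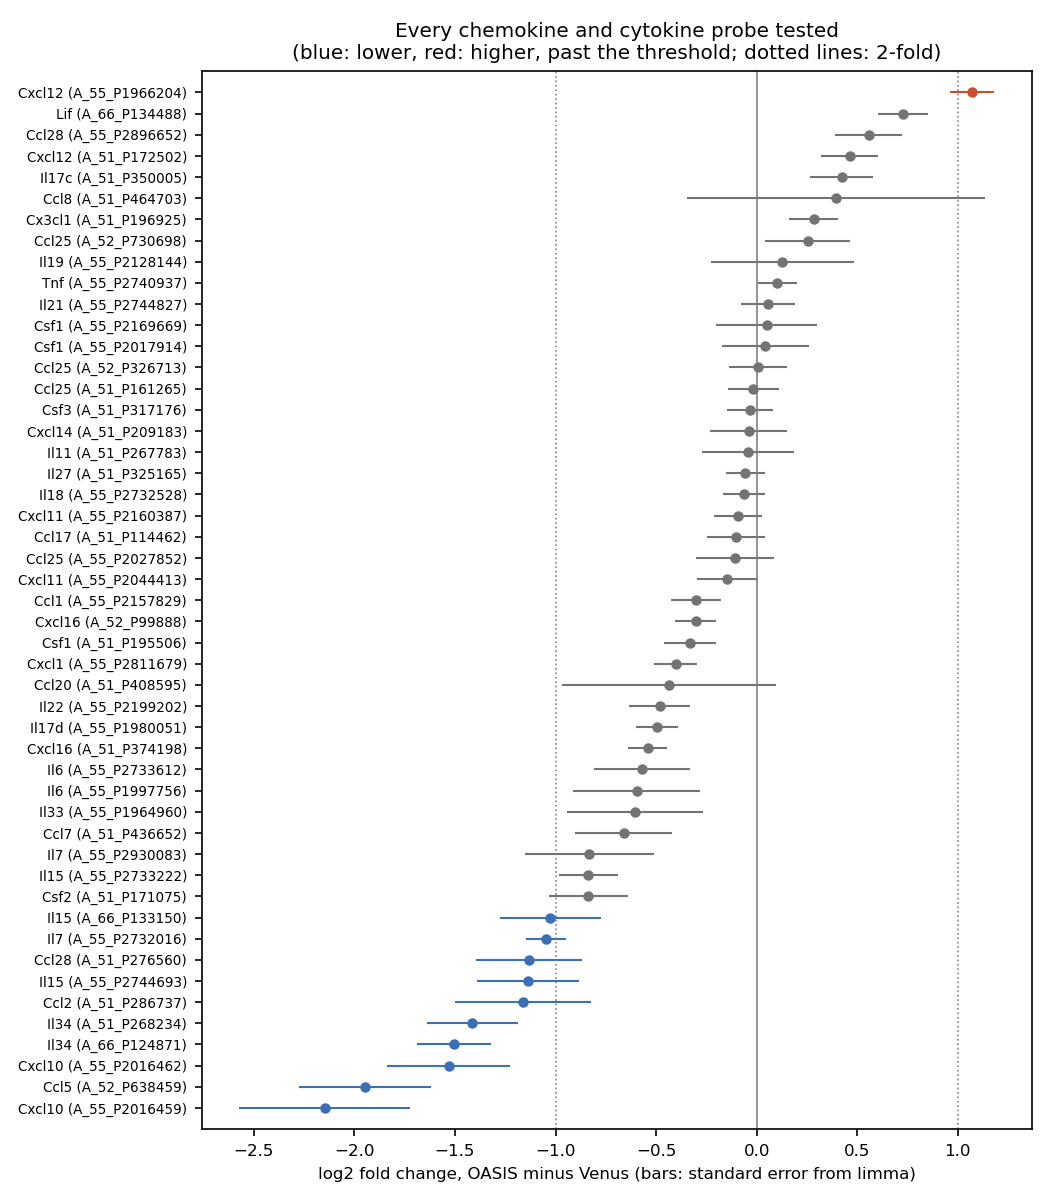
The log2 fold change, OASIS minus Venus, of each of the 49 tested probes is drawn with its standard error from limma, in order of size. Fitted values run from -2.15 for the dimmer Cxcl10 probe, which did not clear the background with OASIS and for which only a bound of at least 1.58-fold holds, to 1.07 for a Cxcl12 probe, and the dotted lines mark a 2-fold difference.

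Among the inflammatory CC chemokines, Ccl2 and Ccl5 fell. Ccl2, on chromosome 11 in band qC, is the main attractant of monocytes through the receptor Ccr2. Its probe read 4.53, 4.99, 3.17 and 4.03, and the lower Venus array lay 0.50 above the higher OASIS array. The log2 fold change was -1.16 (SE 0.34, adjusted p = 0.0696 by limma), a 2.24-fold lower intensity with OASIS. This call is not stable to the loss of an array, since limma gave an adjusted p of 0.124 without Venus replicate 1, 0.226 without Venus replicate 2 and 0.129 without OASIS replicate 1, the last at a log2 fold change of -0.73.

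Ccl5, which attracts T cells, monocytes and eosinophils, lies in the same band as Ccl2. It read 2.05, 2.23, -0.28 and 0.66, a gap of 1.39 between the groups. Its log2 fold change of -1.95 (SE 0.33, adjusted p = 0.0215 by limma) was a 3.86-fold lower intensity. The 2 OASIS arrays differed by more than the Venus arrays, with an SD of 0.66 against 0.12, and Ccl5 remained past the threshold when any single array was left out. In such a fit the group with 1 array left is taken to vary like the other group, so that a fit without an OASIS array draws its spread from the Venus pair, the closer one here.

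The gene order of the mouse reference puts Ccl2, Ccl7, Ccl11, Ccl12, Ccl8 and Ccl1 side by side, and Ccl5 stands 25 coding genes further on, at the head of a second row with Ccl9, Ccl6, Ccl3 and Ccl4. Ccl7, the direct neighbour of Ccl2 and also an attractant of monocytes, read -1.27, -0.93, -2.05 and -1.47, with both OASIS arrays below both Venus arrays and a log2 fold change of -0.66 (SE 0.24, adjusted p = 0.114 by limma). Ccl8 read -5.18, -5.22, -3.69 and -5.92, so that the OASIS arrays lay on both sides of the Venus arrays. Ccl1, which acts on T cells through Ccr8, read -5.72, -5.49, -5.91 and -5.91, a log2 fold change of -0.30. The other Ccl1 probe was above background on no array. Neither Ccl8 nor Ccl1 passed the adjusted p, at 0.728 and 0.144 by limma. Ccl20, an attractant of dendritic cells and T cells on chromosome 1, read -1.75, -0.97, -2.49 and -1.10. Its arrays overlapped, and the 95% interval of its log2 fold change ran from -1.84 to 0.97, which leaves room for a change of over 2-fold on the lower side.

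Cxcl10, the interferon-inducible ligand of Cxcr3 on chromosome 5 in band qE2, was lower by both of its probes. The brighter one, A_55_P2016462, read 3.59, 3.96, 1.84 and 2.65, with a gap of 0.95 between the groups. Its log2 fold change was -1.53 (SE 0.31, adjusted p = 0.0312 by limma), a 2.89-fold lower intensity. Without Venus replicate 2 it kept a log2 fold change of -1.35 but not the call, at a limma adjusted p of 0.116. The dimmer one, A_55_P2016459, read -5.50, -5.46, -8.26 and -7.00 and did not clear the background with OASIS. Only a bound holds there, at least 1.58-fold lower, which is under the 2-fold limit. Its call and its limma adjusted p of 0.0305 belong to the fitted log2 fold change of -2.15. A bound of this kind sets the Venus mean against, on each OASIS array, whichever is higher of the value of this probe and the lowest signal that cleared the background. Some probes of the array read above that lowest signal and still did not clear the background. The size of every such bound given here therefore depends on this choice of floor. After normexp background correction the log2 fold change of this dim probe was -0.27, whereas the brighter one stayed past the threshold.

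In the rest of the interferon-inducible group no probe passed the threshold, and Cxcl9 was not detected. Cxcl11, which the RefSeq annotation of the mouse reference lists as a transcribed pseudogene, read 7.40, 7.36, 7.39 and 7.18 by its probe A_55_P2160387. Here the groups overlapped, with a log2 fold change of -0.09 and a 95% interval from -0.41 to 0.22. The other Cxcl11 probe, A_55_P2044413, read 2.02, 1.67, 1.75 and 1.65, a log2 fold change of -0.15 (limma adjusted p = 0.527). Whether these probes also read other transcripts was not analysed here.

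**Figure D3:**
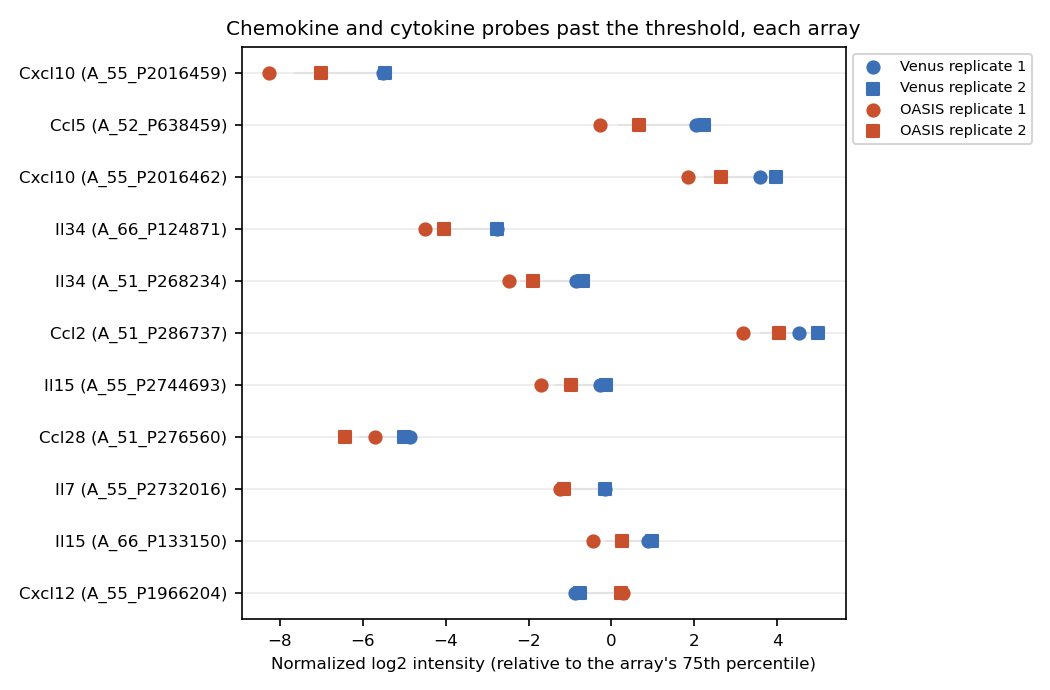
The normalized log2 intensity on each array is drawn for the 11 probes past the threshold, with blue for Venus, red for OASIS, circles for replicate 1 and squares for replicate 2. For each of the 10 lower probes both OASIS arrays lie to the left of both Venus arrays, and for Cxcl12 they lie to the right. OASIS replicate 1 is the lower OASIS array in 9 of the 10 lower probes, beside 13586 of all 31598 tested probes, and Ccl28 is the exception.

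Cxcl12 rose. This homeostatic chemokine on chromosome 6 in band qF1 holds Cxcr4-bearing cells in place, and podocytes are a known source of it in the glomerulus. Probe A_55_P1966204 read -0.89, -0.75, 0.28 and 0.22, with a gap of 0.97 between the groups and close replicates. Its log2 fold change was 1.07 (SE 0.11, adjusted p = 0.00805 by limma), a 2.10-fold higher intensity. It stayed past the threshold without any single array, and normexp correction brought it just under 2-fold, at a log2 fold change of 0.996 with a limma adjusted p of 0.000456. The second probe, A_51_P172502, read 1.65, 1.49, 2.16 and 1.89 and moved the same way by less, with a log2 fold change of 0.46 (SE 0.14, adjusted p = 0.0792 by limma), short of the 2-fold limit. The brighter of these probes did not pass the threshold, so that the call depends on which probe stands for the gene.

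Of the neutrophil attractants with the ELR motif, Cxcl1 was the only one detected. It read 1.15, 1.02, 0.65 and 0.72, with both OASIS arrays lower, and its log2 fold change of -0.40 (SE 0.11, adjusted p = 0.0587 by limma) was under 2-fold. Cxcl16 and Cx3cl1 are transmembrane chemokines, which can be shed or hold leukocytes at the cell surface. Cxcl16, also a scavenger receptor, read 0.22, 0.19, -0.34 and -0.34 by A_51_P374198 and -0.54, -0.62, -0.90 and -0.86 by A_52_P99888. The log2 fold changes were -0.54 (limma adjusted p = 0.0246) and -0.30 (limma adjusted p = 0.0932), small differences with little spread between replicates. Cx3cl1, the ligand of Cx3cr1, read 1.27, 1.46, 1.59 and 1.71, a log2 fold change of 0.28 that did not pass (limma adjusted p = 0.153). Cxcl14, at -5.21, -5.32, -5.06 and -5.55, overlapped between the groups.

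Among the homeostatic CC chemokines, Ccl28, a mucosal chemokine for plasma cells and eosinophils, was read by a pair of probes that went opposite ways. A_51_P276560 read -4.85, -5.01, -5.70 and -6.42 and was well above background on 1 of the 2 OASIS arrays. Its log2 fold change of -1.13 (SE 0.26, adjusted p = 0.0433 by limma) passed the threshold. A_55_P2896652 read -5.54, -5.65, -4.84 and -5.24, with both OASIS arrays above both Venus arrays and a log2 fold change of 0.56 (SE 0.17, adjusted p = 0.0747 by limma). The direction of Ccl28 is therefore unsettled, and which transcript forms its probes read was not analysed here. The fall of the first probe was a log2 fold change of -0.26 after normexp correction and -0.77 without OASIS replicate 2, and with either Venus array left out its limma adjusted p was 0.157 and 0.122. Ccl17, a ligand of Ccr4, read -0.86, -0.66, -0.99 and -0.74 (log2 fold change -0.10). Ccl25, the thymic and gut chemokine for Ccr9, had 5 probes, the most of any member gene. Its brightest read 2.55, 2.41, 2.56 and 2.36, and the 4 tested probes had log2 fold changes from -0.11 to 0.25, all with overlapping groups.

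Of the cytokines that signal through the common gamma chain, Il7 and Il15 fell. Il7, on chromosome 3 in band qA1, keeps lymphocytes and their precursors alive. Its probe A_55_P2732016 read -0.14, -0.16, -1.24 and -1.15. The replicates lay within an SD of 0.0080 for Venus and 0.062 for OASIS, and the log2 fold change was -1.05 (SE 0.10, adjusted p = 0.00736 by limma), a 2.07-fold lower intensity. This was the lowest adjusted p of any member probe, and the call stood without any single array. After normexp correction the log2 fold change was -0.95, just short of the 2-fold limit. The second probe, A_55_P2930083, read -5.81, -6.02, -6.29 and -7.20 and was above background on the Venus arrays alone, with a limma adjusted p of 0.126.

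Il15, on chromosome 8 in band qC2, supports natural killer cells and memory T cells and is presented on the surface of the cell that makes it, bound to Il15ra. Its probe A_55_P2744693 read -0.27, -0.13, -1.69 and -0.98, and A_66_P133150 read 0.88, 0.98, -0.44 and 0.25. Both fell, with log2 fold changes of -1.14 (SE 0.26, adjusted p = 0.0399 by limma) and -1.03 (SE 0.25, adjusted p = 0.0484 by limma). Another probe, A_55_P2733222, read -4.01, -4.08, -5.05 and -4.72 and was lower by 1.79-fold (limma adjusted p = 0.0239), under the limit on the fold. No Il15 array overlapped between the groups by any of these probes. Without OASIS replicate 1 the log2 fold changes of the first pair were -0.78 and -0.68, and without Venus replicate 1 or Venus replicate 2 the limma adjusted p ran from 0.121 to 0.166. Il15ra, by contrast, had values that were higher with OASIS by all 3 of its probes, with log2 fold changes from 0.29 to 0.73, none past the threshold. Il21 read -4.53, -4.81, -4.63 and -4.61, with no order between the groups, and its other probe was above background on no array.

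Il34 and Csf1 are the ligands of Csf1r, the receptor on which macrophages depend. Il34 passed the threshold and Csf1 did not, and the difference between them was not tested. Il34, on chromosome 8 in band qE1, read -0.85, -0.69, -2.48 and -1.88 by A_51_P268234 and -2.77, -2.75, -4.50 and -4.03 by A_66_P124871. The groups stood 1.04 and 1.26 apart. The log2 fold changes were -1.41 (SE 0.23, adjusted p = 0.0190 by limma) and -1.505 (SE 0.18, adjusted p = 0.0111 by limma), 2.66-fold and 2.84-fold lower. Both probes stayed past the threshold without any single array, while after normexp correction the dimmer one had a log2 fold change of -0.77 and did not.

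Csf1, on chromosome 3 in band qF2.3, read 5.78, 5.86, 5.37 and 5.61 by A_51_P195506, a log2 fold change of -0.33 with a 95% interval from -0.67 to 0.0080. By its 2 other detected probes, at 1.49, 1.73, 1.39 and 1.92 and at 1.70, 2.04, 1.61 and 2.23, the arrays overlapped and the log2 fold changes were 0.04 and 0.05. Its receptor gene Csf1r had log2 fold changes of 0.02 and 0.74, neither past the threshold. Csf2, the granulocyte-macrophage factor, read -3.29, -3.37, -4.43 and -3.91. Its log2 fold change of -0.84 (SE 0.20, adjusted p = 0.0448 by limma) passed the adjusted p but not the limit on the fold. Csf3, the granulocyte factor, read -4.34, -4.20, -4.36 and -4.24 and showed no order between the groups, with a 95% interval from -0.33 to 0.27.

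Within the gp130 family, Lif passed the adjusted p on the higher side, though not the limit on the fold, and Il6 passed neither. Lif, which acts on epithelial and stem cells through Lifr, read -0.06, 0.08, 0.83 and 0.64, with both OASIS arrays above both Venus arrays. Its log2 fold change of 0.73 (SE 0.12, adjusted p = 0.0221 by limma) was a 1.65-fold higher intensity, under the limit. Il6, a cytokine of the acute phase, read -2.85, -2.57, -3.74 and -2.87 by A_55_P1997756 and -4.19, -3.90, -4.91 and -4.32 by A_55_P2733612. Both log2 fold changes, -0.60 and -0.57, failed the test (limma adjusted p = 0.230 and 0.149), and OASIS replicate 2 lay close to the Venus arrays. Il11 read -1.69, -1.96, -1.58 and -2.15 and overlapped. Il27 read -1.60, -1.59, -1.65 and -1.65, a difference of -0.06.

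The remaining cytokines detected on all 4 arrays did not pass the threshold. Tnf, which activates endothelium and leukocytes through NF-kB, read -3.37, -3.34, -3.24 and -3.27, a log2 fold change of 0.10 whose 95% interval ran from -0.16 to 0.36. These values are of probe A_55_P2740937. The other Tnf probe, A_51_P385099, read -8.38, -8.44, -8.40 and -8.42, above background on no array, so that detection of Tnf depends on the probe. Il18, of the interleukin 1 family, read 0.00, 0.03, -0.11 and 0.02, while the alarmin Il33 read -3.17, -2.92, -4.13 and -3.18, again with OASIS replicate 1 the lower array and a limma adjusted p of 0.249. Il17d read -0.74, -0.80, -1.32 and -1.21, and its log2 fold change of -0.49 (SE 0.11, adjusted p = 0.0359 by limma) was under 2-fold. Il22 read -5.18, -5.36, -5.60 and -5.91 (log2 fold change -0.48, limma adjusted p = 0.0852), and Il19 read -5.82, -5.44, -5.99 and -5.02 with overlapping groups. For both Il22 and Il19 the other probe was above background on no array. Il17c, above background on 3 arrays, had a log2 fold change of 0.42 (limma adjusted p = 0.116).

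With only a Venus and an OASIS group, any list lower with OASIS falls in the same samples as the lower chemokines and cytokines. The interferon response list was read because Cxcl10, Ccl5 and Il15 are known to be induced by interferon. Of its 20 genes, all detected, 16 were lower by at least 1 probe and none was higher. By probe, 21 of 32 tested were lower, or 65.6%, beside 2.47% lower and 5.89% higher over all probes. Of these 32 probes, 29 were above background on all 4 arrays. The median log2 fold change was -1.76. Ifit1, an antiviral protein that binds viral RNA, read 2.69, 3.17, -0.41 and 1.26, and its log2 fold change was -2.503 (limma adjusted p = 0.0432). Ifnb1, the gene of interferon-β itself, read -4.21, -3.08, -6.24 and -6.83 and was well above background on the Venus arrays alone, at least 5.64-fold lower with OASIS (limma adjusted p = 0.0165). The other genes with the larger falls were Rsad2 at -2.65, Mx1 at -2.63, Usp18 at -2.55, Mx2 at -2.48, Oas3 at -2.44, Ifit3 at -2.07 and Irf7 at -2.03, with limma adjusted p from 0.00774 for Rsad2 to 0.0904 for Ifit3. Stat2 was at least 3.54-fold lower by a probe that did not clear the background with OASIS (limma adjusted p = 0.00564). For Ifnb1 and Stat2 the adjusted p belongs to the fitted value and not to the bound. Oas2 and Oasl1 were among the 4 genes with no probe past the threshold, beside Irf1 and Ddx58.

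Array by array, the shift from the Venus mean was larger on OASIS replicate 1 than on OASIS replicate 2 in both sets. The 10 lower member probes had a median shift of -1.65 on OASIS replicate 1 and -1.12 on OASIS replicate 2, and the 32 interferon probes had -2.35 and -0.97. OASIS replicate 1 was the lower OASIS array in 9 of the 10 member probes and in 30 of the 32 interferon probes. Over all 31598 tested probes it was the lower one in 13586, with medians of -0.042 and -0.086. Over the 49 tested members it was the lower one in 30, with medians of -0.32 and -0.27. The 10 member probes were picked as lower with OASIS. Without OASIS replicate 1, 7 of the 10 member probes and 14 interferon probes were called, with an interferon median of -0.97, and without OASIS replicate 2 it was 9 and 27. With Venus replicate 1 left out 6 of the 10 member probes and 8 interferon probes were called, and with Venus replicate 2 left out 5 and 5. For Il7 the OASIS arrays read nearly the same. All 4 samples had received a lentivirus, and the part of the interferon response in the lower cytokine values was not tested.

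**Figure D4:**
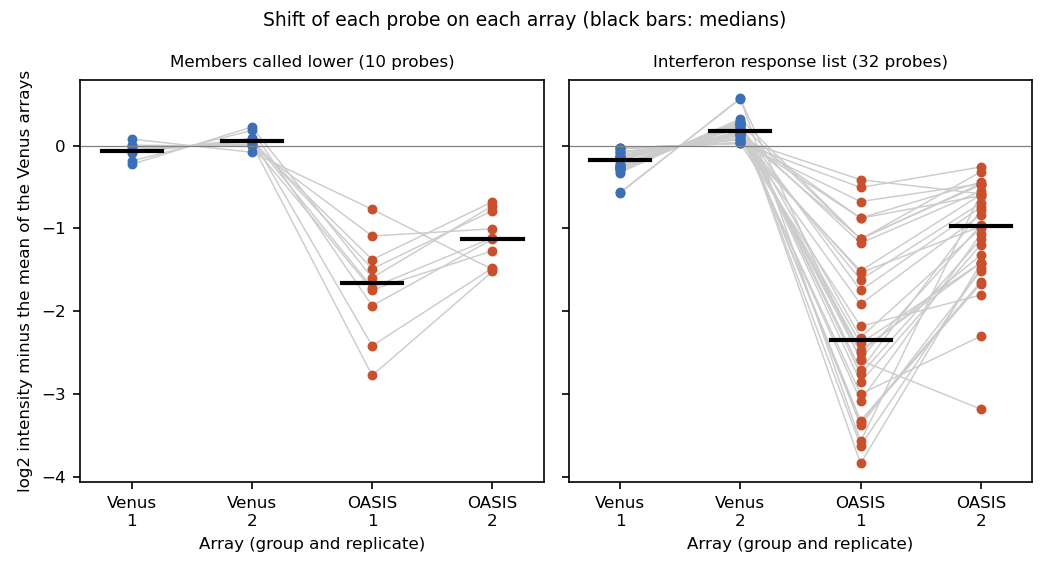
Each point is the normalized log2 intensity of 1 probe on 1 array minus the mean of the 2 Venus arrays, for the 10 chemokine and cytokine probes called lower (left) and the 32 tested probes of the interferon response list (right). Lines join the arrays of a probe and black bars are medians. On the left the medians are -1.65 and -1.12 for OASIS replicates 1 and 2, and on the right -2.35 and -0.97.

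Of the chemokine receptors, 23 genes were on the array, 17 were above background on no array and 3 were tested. These were the scavenger Ackr3 (log2 fold change 0.26), Ccr8 (-0.64) and the atypical Ccrl2 (-0.95), and none passed the threshold. Cxcr4, Cxcr3, Ccr2 and Ccr3, which are among the receptors of the chemokines that changed, were above background on no array.

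Of 48 cytokine receptor and decoy genes, 38 were tested with 61 probes, and 2 probes were higher and 6, of 5 genes, lower. These shares were 3.28% higher and 9.84% lower, beside 5.89% and 2.47% over all probes. The median log2 fold change of the list was -0.13. Il13ra2, a decoy receptor for interleukin 13, read -5.44, -5.04, -3.87 and -4.31, a log2 fold change of 1.15 (limma adjusted p = 0.0270). Il20ra was above background on the OASIS arrays alone and was at least 1.62-fold higher (limma adjusted p = 0.0222). Il1rap, the shared accessory chain, read -5.33, -5.51, -7.02 and -6.98 by A_52_P207374 and was at least 1.65-fold and 1.28-fold lower by its 2 probes, with limma adjusted p of 0.00468 and 0.00629. Il1rn, the receptor antagonist, was at least 1.73-fold lower (limma adjusted p = 0.0133). For Il20ra, Il1rap and Il1rn the call and its adjusted p belong to the fitted value, and the bounds are under 2-fold. Il18r1 read -3.88, -3.73, -5.06 and -6.50, above background on 1 OASIS array, with a log2 fold change of -1.97 (limma adjusted p = 0.0492). Il1rl1, the receptor of Il33, fell by 1 probe, at -1.04, while its 2 other probes gave -0.76 and 0.57, so that its probes disagree. Il17rd fell by 1 probe, at -1.30, and its other probe gave -0.85, under the limit.

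The feedback genes of the cytokine pathways did not follow 1 direction. Of 17 NF-kB factors and feedback genes tested with 34 probes, 1 probe was higher, for the kinase subunit Ikbkg (log2 fold change 1.09, limma adjusted p = 0.00886), and none was lower, with a median of -0.13. The share called higher was 2.94%, beside 5.89% higher and 2.47% lower over all probes. By the adjusted p alone, 9 of these 34 probes were lower and 4 higher, beside 19.7% lower and 17% higher over all probes. Of 13 genes that respond to interleukin 6 and Lif, tested with 21 probes, Socs1 and Socs3 were higher, 9.52% of the probes. The median was -0.05. Socs1, an inhibitor of JAK kinases and of interferon signalling, read -1.05, -1.19, 0.84 and 0.43, a log2 fold change of 1.75 (SE 0.17, adjusted p = 0.00748 by limma). Socs3, the inhibitor that binds gp130, read 1.41, 1.42, 2.67 and 2.44, a log2 fold change of 1.14 (SE 0.12, adjusted p = 0.00868 by limma). Over the receptor, NF-kB, interferon and interleukin 6 lists together, 5 probes were higher, with 3 called without OASIS replicate 1 and 9 without OASIS replicate 2.

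**Figure D5:**
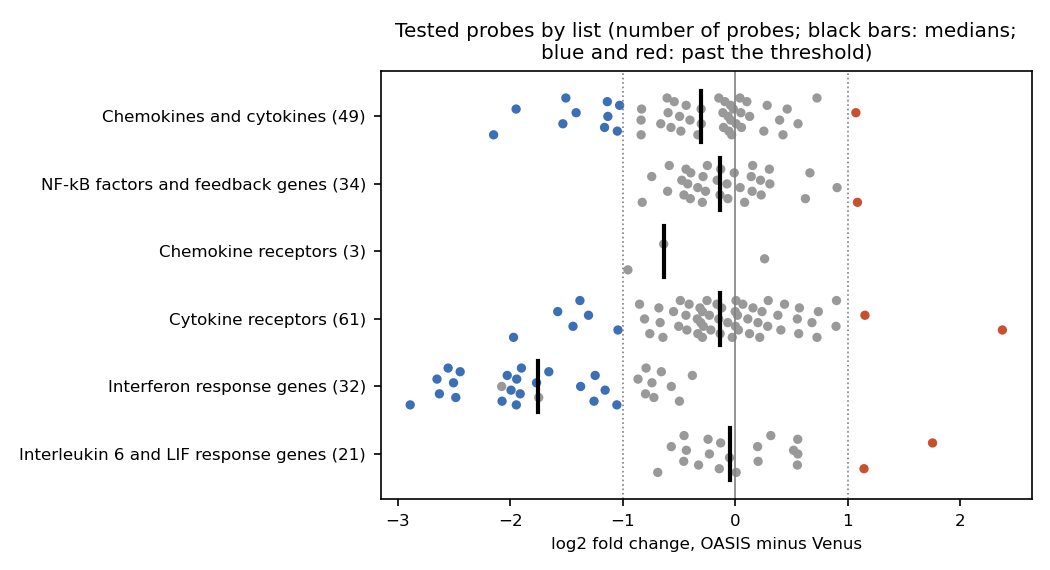
The log2 fold change, OASIS minus Venus, is drawn for every tested probe of the chemokines and cytokines and of 5 related lists, with the number of probes beside each name, black bars at the medians and dotted lines at 2-fold. Blue and red points are past the threshold. The interferon response list has its median at -1.76, the chemokines and cytokines at -0.30, the NF-kB, cytokine receptor and interleukin 6 lists between -0.13 and -0.05, and the 3 chemokine receptor probes at -0.64. Values of probes below background in 1 group, such as Il20ra, are fitted values and not bounds.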

How the data were processed

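RNA of 4 samples, 2 Venus and 2 OASIS as the labels name them, was measured on 1-colour Agilent arrays. The deposited scanner files, from Agilent Feature Extraction (version 12.1.0.3 per the file headers), give the background-corrected intensity of each spot and other flags. The scaled intensity that the authors list per spot beside it is the corrected intensity multiplied by a constant of each array (0.663 to 0.698). Their detection score per spot, also deposited, was not used. Symbols and bands are those of the deposited annotation, and RefSeq, which all 107 probes matched, gave gene order.

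Control and outlier spots were left out, the 75th percentile of an array was subtracted from its log2 intensities, and replicate spots were averaged. A probe counted as well above background when at least 0.5 of its spots were. limma 3.58.1 (R 4.3.3, data.table version 1.17.8) was fitted to 31598 probes, with Benjamini-Hochberg adjustment over all of them. The limits on the fold and the adjusted p were those of the study's methods, and limma was the choice made here. With 2 arrays against 2, an exact permutation test cannot give a two-sided p below 0.333. On simulated arrays of 31590 probes with 200 changed, 78 of 100 changed by 1.5 and 86 of 100 changed by 2.5 (log2) were recovered, with 9 others called and 0 called when nothing was changed. The simulation gave both groups the same spread and changed far fewer probes than the 2641 called here. It held no change near the 2-fold limit, where Il7, Cxcl12, Il15, Ccl28 and Ccl2 were called. Its rates are therefore not those of the calls reported.

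The members, the gene lists and the settings were chosen with earlier results of these data known. The text names each member gene with a probe past the threshold or detected on all 4 arrays, and from each related list at most 10 genes past the threshold, by size. Alternatives were quantile and median scaling, the authors' scaled values, normexp (offset 50), other filters, outlier spots kept, the methods' t-test, a trend in eBayes, other thresholds, genes in place of probes, a replicate block and leaving out each array. No sequences or coordinates were used here, and values of some marker and receptor genes are not reported here.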

Additional observations from a re-analysis of the deposited data

How the results depend on the processing

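Under the alternatives that keep all arrays, 460 values kept their direction and side of the threshold, 21 lost the call and 4 changed sign. These values cover all 49 tested probes, and only the 10 lower and 1 higher probes could lose a call. The 10 lower chemokine and cytokine probes stayed at 10 under quantile normalization, median scaling, the authors' scaled values, kept outlier spots and an intensity trend. They were 5 after normexp correction, 4 with no filter on dim probes, 1 by the methods' t-test, 17 with no limit on the fold, and as genes 6 by the brightest probe and 4 by the mean of probes. The 1 higher probe became 0 after normexp, 2 with no filter, 4 with no limit on the fold, and 0 by either way of counting genes. Leaving out 1 array, which leaves the spread to the other group, gave 5 to 13 lower and 1 to 3 higher. In the related lists, the 5 higher probes became 2 (normexp), 0 (t-test) and 23 (no limit on the fold), with 3 to 9 when an array was left out. The 27 lower ones became 10 (no filter), 2 (t-test), 15 (adjusted p under 0.05) and 62 (no limit on the fold), with 11 to 34 when an array was left out. With only probes above background on all 4 arrays, 8 of 44 member probes were lower and 1 higher. The same filter left 20 lower and 4 higher probes of the related lists, of 141 tested. No filter tests more dim probes, and the cause of the other shifts was not tested.

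With all arrays kept, the sign turned for Csf3 (0.0408) and Csf1 A_55_P2017914 (-0.0050) after normexp and for Ccl25 A_52_P326713 with median scaling (-0.0135) and the authors' values (-0.0058), all near 0. With an array left out, signs turned for probes that had not been called. Their ranges were -0.23 to 0.0226 for Ccl17, -1.13 to 0.26 for Ccl20, -0.72 to 1.51 for Ccl8, -0.28 to 0.20 for Cxcl14, -0.32 to 0.24 for Il11, -0.36 to 0.61 for Il19, -0.0837 to 0.20 for Il21, -0.128 to 0.00171 for Il18 and -0.10 to 0.0368 for Csf3. For Csf1 they were -0.22 to 0.31 and -0.26 to 0.36, for Cxcl11 -0.32 to 0.0278 and -0.20 to 0.0128, and for the 4 Ccl25 probes -0.11 to 0.0816, -0.14 to 0.15, -0.0324 to 0.54 and -0.35 to 0.13.

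The replicate numbers of the labels, fitted as a replicate block, gave 10 lower and 1 higher member probes and 29 lower and 5 higher probes of the related lists. Same-numbered samples correlated at r = 0.26 in their deviations over all probes and 0.61 over the tested members, but with 2 pairs the numbers are not known to pair the samples. The number of arrays limits the precision of every probe, and no untested member probe read above -5.76. That value, for Il24 on OASIS replicate 1, was above background, but the probe was not so on both arrays of a group. The lowest signal above background lay between -6.15 and -6.10 on the 4 arrays.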

Other observations

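Cytokines whose symbols lie outside the rule were read as well, from a list written after their values had been seen. Of 36 such genes on the array, 21 were tested with 34 probes, of which 3 were higher and 1 lower, and the median log2 fold change was -0.25. These shares were 8.82% higher and 2.94% lower, beside 5.89% and 2.47% over all probes. Tnfsf15, the ligand of death receptor 3 that costimulates T cells, rose by both probes. Probe A_66_P106167 read -5.64, -5.79, -2.4996 and -2.74, with a log2 fold change of 3.09 (SE 0.13, adjusted p = 0.00209 by limma), and A_55_P2182452 read -4.36, -3.75, -1.71 and -2.01, with 2.20 (limma adjusted p = 0.00927). These exceed every rise among the chemokines and interleukins above. Ltb, the lymphotoxin that forms a membrane complex with lymphotoxin alpha, read -3.96, -3.81, -2.61 and -3.05, a log2 fold change of 1.05 (limma adjusted p = 0.0225). Kitl, the stem cell factor, fell by 1 of 3 probes, which read -3.95, -3.85, -5.44 and -4.85 (log2 fold change -1.25, limma adjusted p = 0.0236), while the others gave -0.28 and -0.62. The 3 probes of Flt3l, the dendritic cell growth factor, had log2 fold changes of -0.52 to -0.81 without passing the threshold. Mif gave 0.27 and 0.19 and Tslp -0.07, none past the adjusted p.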
